A study of Mus musculus with 25 samples.

Results

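The genes described here are 10 transcription factors that adipocytes use to become and remain fat cells: *Pparg*, *Cebpa*, *Cebpb*, *Cebpd*, *Ebf1*, *Klf15*, *Rxra*, *Rxrg*, *Nr1h3* and *Ppara*. They were taken by symbol from the 54752 genes counted in each library, and all 10 passed the filter on low counts in both depots. The data were 25 RNA-seq libraries of white adipose tissue, 14 from the epididymal depot (eWAT) and 11 from the inguinal depot (iWAT). The study asked how fat responds to a high-fat diet (HFD) when mice lack *Acod1*, the gene of the mitochondrial enzyme that makes itaconate. In each depot the groups were wild type mice on normal diet (WT ND, n = 4 in eWAT and 3 in iWAT), wild type mice on HFD (WT HFD, n = 5 in each depot) and *Acod1*-/- mice on HFD (KO HFD, n = 5 in eWAT and 3 in iWAT). The mice were male and on a C57BL/6N background, the *Acod1*-/- mice carried the em1 knockout allele in the germline and were compared with littermates, and the animals were caged singly. The HFD held 60% of calories as fat and was started at 5 weeks of age. The labels gave a time of 16 weeks except for iWAT KO HFD libraries 2 and 3, at 17 and 18 weeks, while the treatment text of the same labels gave 16 weeks for all, so the times of these libraries are uncertain. *Acod1*-/- mice on normal diet were not analysed here, so genotype was compared on HFD alone. The labels do not say which eWAT and iWAT libraries came from the same mouse.

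When a precursor cell turns into an adipocyte, the C/EBP proteins encoded by *Cebpb* and *Cebpd* act early and switch on *Pparg* and *Cebpa*, which then maintain each other and the genes of the mature fat cell. PPARG is a nuclear receptor that binds DNA as a heterodimer with a retinoid X receptor, such as those encoded by *Rxra* and *Rxrg*. The same partners serve PPARA, the receptor best known for driving fatty acid oxidation, and LXR alpha, the oxysterol receptor encoded by *Nr1h3*. EBF1 is a helix-loop-helix protein that works upstream of and beside PPARG in adipocytes and is also required for B cell development. KLF15 is a Krüppel-like factor that is induced by glucocorticoids and fasting and that controls amino acid breakdown and the glucose transporter gene *Slc2a4*.

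*Klf15* was the regulator with the largest response to diet in both depots. On HFD it fell 3.50-fold in mean level in eWAT of WT mice, and it was 2.38-fold higher in eWAT of *Acod1*-/- mice than of WT mice on the same diet. *Pparg* and *Cebpa*, the pair at the centre of the network, passed the threshold in none of the 9 comparisons made. In eWAT, HFD changed 4 of the 10 genes at an adjusted p under 0.1 in edgeR's quasi-likelihood test: *Klf15*, *Cebpd* and *Rxra* fell and *Cebpb* rose, where 51.8% of all 14936 genes tested were called. In iWAT, HFD changed 2 of the 10, with *Klf15* lower and *Nr1h3* higher, beside 50.1% of 14801 genes. By genotype 1 of the 10 was called in eWAT, *Klf15*, beside 19.9% of all genes. In iWAT the genotype comparison called 0 of the 10 genes and 0% of all genes in edgeR, where 1 member (*Klf15*) and 2468 genes had an unadjusted p under 0.05, while DESeq2's Wald test called 1 member and 1072 genes. Single libraries moved this count: without iWAT KO HFD library 3, which was labelled 18 weeks and was the sole KO library of iWAT in the higher of 2 series of read-file numbers, edgeR called 2664 genes and 2 of the 10 members, *Klf15* (1.02 on the log2 scale, adjusted p = 0.0407) and *Ebf1* (0.58, adjusted p = 0.0791), and without iWAT WT HFD library 5 it called 210 genes and *Klf15* (1.13, adjusted p = 0.0929). A share of members called near or below that of all genes, as in both diet comparisons, is no result about the group as a whole. The counts of the gene lists given further on are read against the same shares, 51.8% and 50.1% for diet in eWAT and iWAT and 19.9% for genotype in eWAT.

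**Figure D1:**
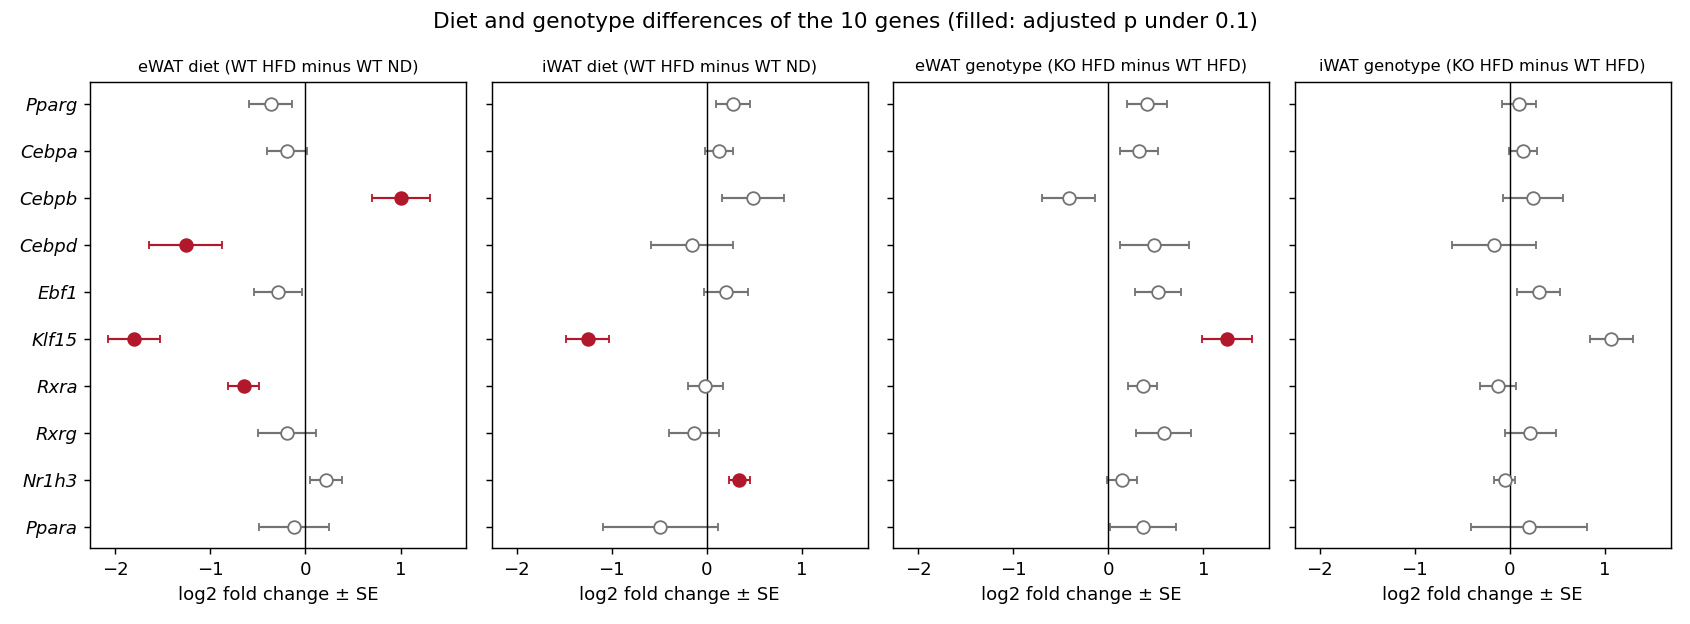
Log2 fold change (horizontal axis, points) with its standard error (bars) for each of the 10 genes (vertical axis) in the 4 comparisons within a depot, with filled red points for an adjusted p under 0.1 in edgeR's quasi-likelihood test. *Klf15* lies farthest from 0 in each panel, at -1.81, -1.25, 1.25 and 1.06, of which the last did not pass the threshold.

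Each library held between 31405063 and 52335623 counted reads, so even *Ppara*, the scarcest of the 10, had 29 to 318 reads per library. *Acod1* itself had 0 to 2 reads per library in both KO HFD groups and in eWAT WT ND, 0 to 7 in iWAT WT ND and 0 to 9 in both WT HFD groups, too few to check the genotype labels from the data. The read-file numbers in the column headers fall into a lower series (14 libraries) and a higher series (11 libraries), and the higher series held every ND library and 1 library of each HFD group, so diet was largely confounded with this numbering. Summed adipocyte markers (8 genes) ranged from 20100 to 51600 CPM (counts scaled for library size by the TMM method over all 25 libraries), and 6 mesothelial markers, which belong to the epididymal depot, reached 39.7 to 160 CPM in eWAT and 0.340 to 7.23 CPM in iWAT. Other cell types moved with the groups. All 10 macrophage markers were higher on HFD in eWAT (median log2 fold change 2.29) and 10 of 10 were lower in KO HFD than in WT HFD (median -1.81), with summed levels of 459 to 833 CPM in WT ND, 1340 to 4400 CPM in WT HFD and 416 to 1360 CPM in KO HFD. Of the same markers 8 of 10 were higher on HFD in iWAT (median 1.33), and 0 were called by genotype there (median -1.11). Their summed levels in iWAT were 457 to 566 CPM in WT ND, 490 to 1260 CPM in WT HFD and 336 to 458 CPM in KO HFD. In iWAT, the 3 ND libraries held 595 to 885 CPM of 6 B cell markers against 3.57 to 89.8 CPM in WT HFD and 1.58 to 6.06 CPM in KO HFD, and ND library 1 held 7095 CPM of 5 skeletal muscle markers, which were all lower on HFD (median -4.46). Without that library *Acta1*, skeletal muscle actin, changed from -3.57 to 0.62 and *Mylpf*, a myosin light chain, from -3.53 to 0.21. Endothelial markers fell with HFD in eWAT (6 of 8, median -0.72) and rose in iWAT (6 of 8, median 0.70), and fibroblast and progenitor markers rose in both (7 of 8 each, medians 0.82 and 1.42) and were lower by genotype in eWAT (4 of 8, median -0.57). Brown or beige markers rose with HFD in eWAT (4 of 5, median 2.22) and fell in iWAT (4 of 6, median -2.24), as did T cell markers (4 of 6 rose, median 1.15, and 6 of 6 fell, median -3.29). The summed brown or beige markers were low in eWAT, at 10.2 to 23.5 CPM in ND and 31.4 to 79.4 CPM in WT HFD. In iWAT they were 189 to 1350 CPM in ND and 73.6 to 147 CPM in WT HFD. Mammary or skin epithelial markers fell in eWAT (4 of 5, median -3.72). In whole tissue, fewer cells of a type and less RNA per cell cannot be told apart, and the part of these other cells in each result below was not tested.

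**Figure D2:**
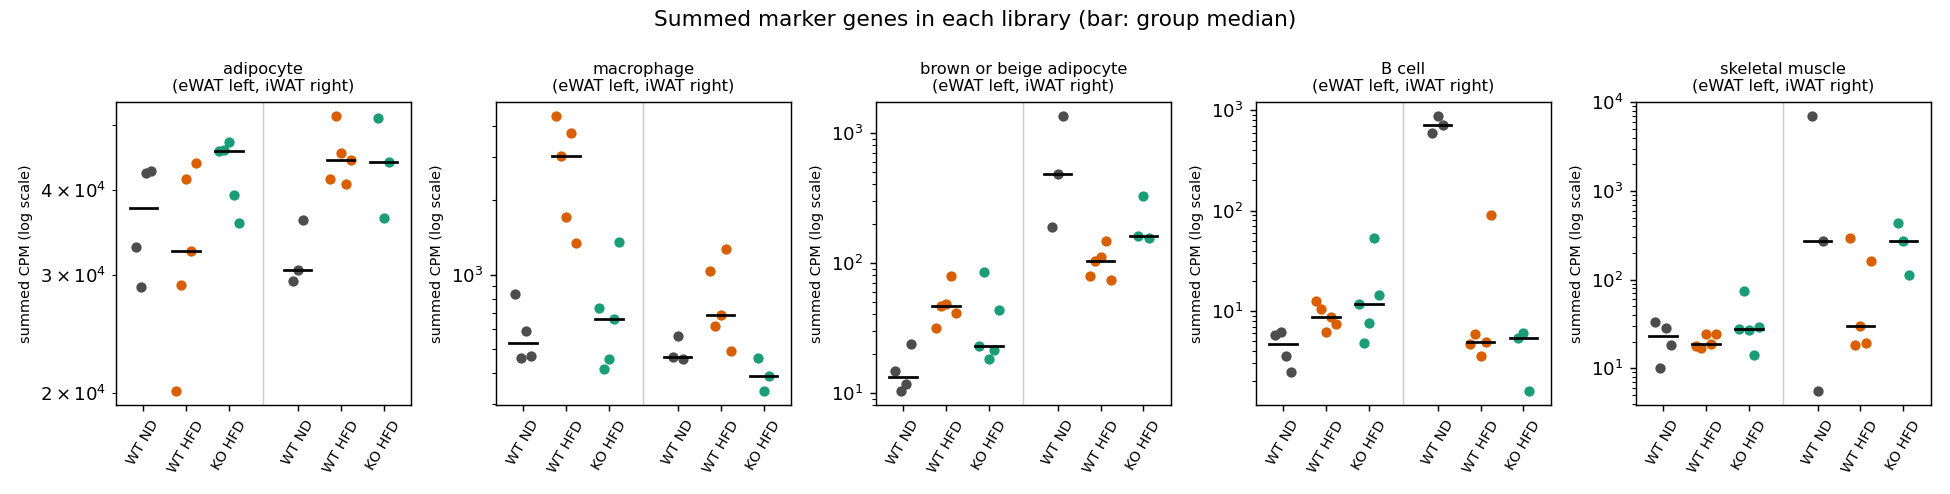
Summed CPM of marker genes (vertical axis, log scale) in each of the 25 libraries for adipocytes, macrophages, brown or beige adipocytes, B cells and skeletal muscle, with groups on the horizontal axis (eWAT left, iWAT right) and bars at the group medians. Macrophage markers stand highest in eWAT WT HFD (median 3010 CPM) and B cell markers in iWAT WT ND (median 720 CPM).

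The 10 genes covered a wide range of levels. Per kilobase of cDNA, *Cebpa* was highest in all 6 groups, between 194 and 282 CPM per kb, and *Ppara* was lowest, between 0.449 and 1.19 CPM per kb. *Pparg*, between 44.8 and 62.1 CPM per kb, was in place 2 in 5 groups and in place 3 in eWAT WT HFD, where *Nr1h3* stood above it. *Nr1h3* (38.2 to 53.8 CPM per kb) took places 2 to 4 and *Rxra* (27.9 to 43.8 CPM per kb) places 3 to 5, below *Cebpb* in eWAT WT HFD and in iWAT KO HFD. The order of *Cebpb*, *Ebf1* and *Klf15* depended on the group. *Klf15* was in place 5 in both ND groups, at 30.6 ± 12.0 and 28.6 ± 9.11 CPM per kb (SD, n = 4 and 3), and in place 7 in WT HFD, at 8.76 ± 1.72 and 11.8 ± 3.01 CPM per kb (SD, n = 5 each). It was also in place 7 in KO HFD, at 20.8 ± 6.71 and 25 ± 2.88 CPM per kb (SD, n = 5 and 3). *Rxrg* and *Cebpd* held places 8 and 9 in 5 groups and the reverse in eWAT WT ND, where *Cebpd* stood at 12.1 ± 6.08 CPM per kb (SD, n = 4). The counts are per gene, so the 2 promoter forms of *Pparg* and the protein isoforms of *Cebpa* and *Cebpb* were not separated.

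**Figure D3:**
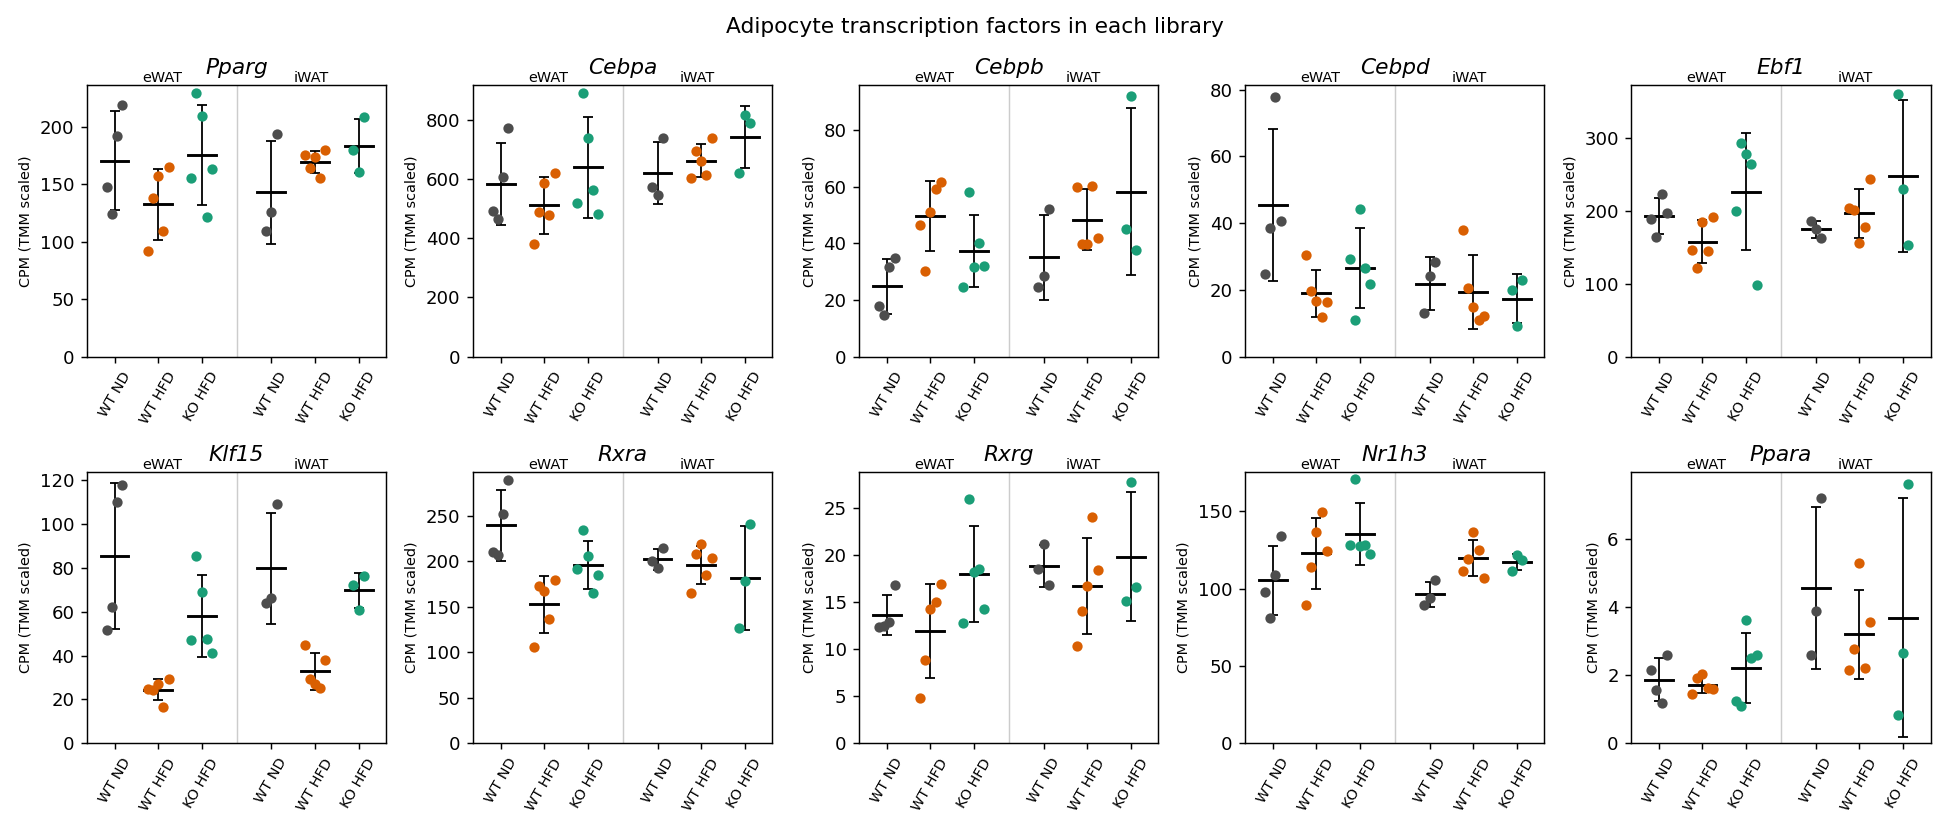
CPM of each of the 10 genes (vertical axes, starting at 0) in every library (points), with the group mean (thick bar) and SD (thin bar), for eWAT (left in each panel) and iWAT (right). The 5 WT HFD points of *Klf15* lie below all ND and all KO HFD points in both depots, while the groups of *Pparg* and *Cebpa* overlap.

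For 9 of the 10 genes RefSeq's table for GRCm38.p6 gave 15 promoter windows, and the 250 bases before each start were searched on both strands for 8 short motifs. *Cebpd* had no entry. The windows of the genes called by diet in eWAT are printed here, each with the matches of 1 motif marked. Capitals mark the E-box CACGTG, bound by clock and other basic helix-loop-helix proteins, in *Klf15*, the half-site TGACG of the cAMP response element in *Cebpb*, and the GC box GGGCGG, bound by SP and KLF proteins, in *Rxra*. The window of *Klf15* is chr6:90462326-90462575, that of *Cebpb* is chr2:167688665-167688914 and that of the first *Rxra* start is chr2:27676951-27677200, all on the plus strand.
Klf15: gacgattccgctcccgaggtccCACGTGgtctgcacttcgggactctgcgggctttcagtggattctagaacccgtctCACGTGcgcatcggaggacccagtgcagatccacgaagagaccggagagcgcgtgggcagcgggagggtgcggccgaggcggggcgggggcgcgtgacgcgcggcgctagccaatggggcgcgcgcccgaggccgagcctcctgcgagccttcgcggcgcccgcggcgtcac
Cebpb: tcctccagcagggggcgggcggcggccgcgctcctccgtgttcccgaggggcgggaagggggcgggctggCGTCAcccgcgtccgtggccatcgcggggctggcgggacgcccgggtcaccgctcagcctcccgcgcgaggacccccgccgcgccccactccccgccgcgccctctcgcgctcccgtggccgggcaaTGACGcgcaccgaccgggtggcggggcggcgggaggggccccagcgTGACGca
Rxra: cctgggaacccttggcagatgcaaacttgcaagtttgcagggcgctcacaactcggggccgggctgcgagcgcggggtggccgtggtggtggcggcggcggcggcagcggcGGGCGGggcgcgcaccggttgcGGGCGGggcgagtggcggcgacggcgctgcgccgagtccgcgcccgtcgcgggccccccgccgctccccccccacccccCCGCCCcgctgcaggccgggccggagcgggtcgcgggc
*Klf15* was the sole member with an E-box and had 2, beginning 228 and 172 bases before the start, where 6.02% of 32851 promoter windows of the same length held 1 or more. *Cebpb* had 3 half-sites TGACG, at 180, 53 and 7 bases before the start, where 17.8% of windows held any and 0.688% held 3 or more. *Rxra* had 3 GC boxes, where 32.7% of windows held any and 8.47% held 3 or more. None of these marked matches overlapped another motif searched. The motif marked in each window was picked from the 8 by no set rule. The shares over all windows were not matched for GC content, which was 72% in the *Klf15* window, 81.6% in that of *Cebpb* and 81.2% in that of *Rxra*. Other motifs in these windows are not in capitals: that of *Cebpb* also held 5 GC boxes, and that of *Klf15* held 2 half-sites TGACG, 1 GC box and 1 CCAAT box. Over all windows of the members, the half-site TGACG was found in *Cebpb*, *Klf15* and *Ppara*, and the GC box in *Cebpb*, *Klf15*, *Ppara*, *Pparg* and *Rxra*. The nuclear receptor half-site AGGTCA (14% of all windows) was found in windows of *Pparg*, *Rxra* and *Rxrg*, the CCAAT box (CCAAT, 33.8%) in *Klf15*, *Pparg* and *Rxrg*, and the TATA box (TATAAA, 12.4%) in *Cebpa* and *Pparg*. The C/EBP core TTGCGCAA (0.164%) and the glucocorticoid receptor half-site AGAACA (16.1%) matched in 0 of the 15 windows. A match of letters is a description and not a binding site.

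The early regulators *Cebpb* and *Cebpd* moved in opposite directions with diet in eWAT. *Cebpb* (chromosome 2, 167688915 to 167690418, plus strand of GRCm38) encodes C/EBP beta, which also drives acute-phase and inflammatory genes. It measured 18.0, 14.8, 31.6 and 34.8 CPM in the 4 eWAT ND libraries, 46.5, 30.2, 51.1, 59.2 and 61.7 CPM in WT HFD, and 24.6, 58.0, 31.5, 40.1 and 32.1 CPM in KO HFD. All but 1 of the 5 WT HFD libraries stood above all ND libraries, and the exception, library 2, overlapped them. *Cebpb* rose 2.01-fold (SE 0.30 on the log2 scale, adjusted p = 0.0166), and the genotype difference of -0.42 ± 0.28 did not pass (adjusted p = 0.342). In iWAT *Cebpb* measured 24.5 to 52.1 CPM in ND, 39.7 to 60.2 CPM in WT HFD and 37.6 to 92.2 CPM in KO HFD, and neither diet (0.49 ± 0.33, adjusted p = 0.25) nor genotype (0.24 ± 0.32, adjusted p = 0.754) passed. Without iWAT ND library 3 the diet difference in iWAT was called (0.87, adjusted p = 0.0726). *Cebpb* shares 908 bases with *Tmem189* on the opposite strand, which rose by 1.11 ± 0.17 with HFD in eWAT (adjusted p = 0.000511). Whether the authors' counting used strand is not given in the sources used here, so reads of these genes may not be fully separated.

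*Cebpd* (chromosome 16, 15887286 to 15891031, plus strand), the gene of C/EBP delta, measured 24.7, 38.4, 77.9 and 40.6 CPM in eWAT ND, 30.5, 19.6, 16.7, 11.8 and 16.3 CPM in WT HFD, and 29.4, 10.9, 44.1, 26.7 and 21.6 CPM in KO HFD. All but 1 of the 5 WT HFD libraries lay below all ND libraries and WT HFD library 1 lay among them. It fell by 1.26 on the log2 scale with HFD (SE 0.38, adjusted p = 0.0184), and the difference by genotype was 0.48 ± 0.36 (adjusted p = 0.405). In iWAT it ranged from 9.09 to 38.04 CPM over all 11 libraries with no call by diet (adjusted p = 0.792) or genotype (adjusted p = 0.895). *Cebpd* overlaps *Spidr* by 1808 bases on the other strand, and *Spidr* changed by -0.48 ± 0.16 in the same eWAT comparison (adjusted p = 0.0258). On normal diet *Cebpd* was 45.4 ± 22.8 CPM in eWAT (SD, n = 4) and 21.9 ± 7.84 CPM in iWAT (SD, n = 3), a difference of 1.05 ± 0.48 that missed the threshold (adjusted p = 0.119). DESeq2 and 4 other alternatives put it past the threshold, with a lowest adjusted p of 0.0754.

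A list of 12 acute-phase and inflammatory genes linked to C/EBP proteins was read beside them. In eWAT 6 of the 10 tested rose with HFD and 1 fell, with a median log2 fold change of 1.2 against -0.04 over all genes. *Saa3*, an acute-phase apolipoprotein, rose by 5.36 ± 0.88 (adjusted p = 0.00076), *Hp*, encoding haptoglobin, by 1.84 ± 0.31 (adjusted p = 0.000823), and *Ccl2*, a monocyte chemokine, by 3.26 ± 0.60 (adjusted p = 0.00129). By genotype 5 of the 10 fell and 1 rose (median -0.87): *Hp* by -1.05 ± 0.28 and *Saa3* by -2.16 ± 0.68, while *Orm3*, an orosomucoid, rose by 2.45 ± 0.63 (adjusted p = 0.0292, 0.055 and 0.0258), of which *Saa3* lost the call in 5 of 23 alternatives. The macrophage markers given above moved in the same directions as this list. In iWAT 6 of the 9 tested rose with HFD and 1 fell (median 1.33), among them *Saa3* (5.42 ± 0.75) and *Hp* (1.97 ± 0.31), both called.

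*Pparg* (chromosome 6, 115360951 to 115490399, plus strand), the master regulator of fat cell formation, measured 147, 124, 192 and 220 CPM in eWAT ND, 92.0, 138, 157, 110 and 165 CPM in WT HFD, and 155, 230, 209, 122 and 163 CPM in KO HFD. All 3 groups overlapped, with WT HFD libraries 1 and 4 lowest. Libraries 1 and 4 also had the highest summed macrophage markers of the series, at 4397 and 3728 CPM. Adipocyte markers were lowest of the series in library 1 (20120 CPM) but not in library 4 (32530 CPM). The part of this makeup in the *Pparg* levels was not tested. The diet difference was -0.37 ± 0.22 (adjusted p = 0.195) and the genotype difference 0.41 ± 0.21 (adjusted p = 0.217). In iWAT *Pparg* measured 109, 126 and 194 CPM in ND, 175, 165, 174, 156 and 180 CPM in WT HFD, and 180, 161 and 209 CPM in KO HFD. ND library 3 was above all WT HFD libraries and ND libraries 1 and 2 were below them, and the difference by diet was 0.27 ± 0.18 (adjusted p = 0.244). Without ND library 3 it was 0.53 with an adjusted p of 0.0119. The same library had the highest summed brown or beige markers of the series (1350 CPM over 6 genes, against 189 and 479 CPM in the other ND libraries).

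*Cebpa* (chromosome 7, 35119293 to 35121928, plus strand), the partner that holds *Pparg* on in the mature cell, was 583 ± 140 CPM in eWAT ND (SD, n = 4), 511 ± 95.5 CPM in WT HFD and 639 ± 172 CPM in KO HFD (SD, n = 5 each). In iWAT it was 619 ± 105, 662 ± 57.3 and 742 ± 106 CPM (SD, n = 3, 5 and 3). Its 4 differences within a depot lay between -0.19 and 0.32 on the log2 scale with adjusted p of 0.307 to 0.679. The SE of these differences was 0.15 to 0.21.

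Of 25 genes that PPARG is known to activate in adipocytes, 11 fell and 2 rose with HFD in eWAT, with a median of -0.52, and the share called (52%) was close to that of all genes (51.8%). *Cfd*, encoding adipsin, fell by 3.41 on the log2 scale (SE 0.64, adjusted p = 0.00147), and *Pck1*, the enzyme of glyceroneogenesis, fell by 2.16 (SE 0.42, adjusted p = 0.00187). *Fabp5*, a fatty acid binding protein that macrophages also make, rose by 1.84 ± 0.25 (adjusted p = 0.000319), and *Agpat2*, which acylates lysophosphatidic acid, rose by 1.39 ± 0.35 (adjusted p = 0.00686). By genotype in eWAT 9 of the 25 rose and 0 fell (36% called beside 19.9%, median 0.39 against 0.04 over all genes). *Cfd* was 2.57 ± 0.60 higher in KO HFD (adjusted p = 0.0182), *Pck1* 1.69 ± 0.40 (adjusted p = 0.0197), *Scd1*, the stearoyl-CoA desaturase, 1.07 ± 0.28 (adjusted p = 0.0284), and *Slc2a4*, the insulin-regulated glucose transporter, 1.16 ± 0.32 (adjusted p = 0.0332). In iWAT 10 of the 25 rose and 4 fell with HFD (56% called beside 50.1%, median 0.19): *Lpl*, lipoprotein lipase, rose by 0.99 ± 0.17 (adjusted p = 0.00116), while *Pck1*, *Cfd* and *Cidea*, a lipid droplet protein of brown and beige fat, fell by 2.11, 2.63 and 2.87. Of the 8 adipocyte markers, some of which are also in this list, 4 fell and 1 rose in eWAT with HFD and 4 were higher by genotype.

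*Rxra* (chromosome 2, 27676440 to 27762957, plus strand) encodes the more abundant of the retinoid X receptors among the 10 genes. In eWAT it measured 210, 207, 251 and 289 CPM in ND, 105, 173, 168, 137 and 180 CPM in WT HFD, and 191, 234, 205, 164 and 184 CPM in KO HFD. Every WT HFD library lay below every ND library. Of the 5 KO HFD libraries 4 lay above all WT HFD libraries, and 4 lay below all ND libraries. *Rxra* fell by 0.65 on the log2 scale with HFD (SE 0.16, adjusted p = 0.00697), and the genotype difference of 0.36 ± 0.15 had an adjusted p of 0.139. In iWAT *Rxra* measured 200, 192 and 215 CPM in ND, 165, 208, 219, 184 and 204 CPM in WT HFD, and 127, 178 and 241 CPM in KO HFD. The iWAT groups overlapped, and the diet difference was -0.02 ± 0.19 (adjusted p = 0.95) and turned to 0.30 with the header numbering as a term. The difference between the depots in the diet effect of *Rxra*, tested in 1 fit over all 25 libraries, was -0.60 ± 0.25 (adjusted p = 0.0855), and *Rxra* was the sole call among the 10 genes, where 29% of 15034 genes were called. It lost the call in 13 of 32 alternatives, 11 of which left out 1 library, with an adjusted p between 0.0484 and 0.186. *Pparg* differed by -0.61 ± 0.30 (adjusted p = 0.154) and was called without eWAT ND library 2 (-0.74, adjusted p = 0.0854), without iWAT ND library 3 (-0.90, adjusted p = 0.0488) and with the replicate number as a block (-0.70, adjusted p = 0.081).

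*Rxrg* (chromosome 1, 167598384 to 167639623, plus strand), the other retinoid X receptor gene among the members, was called in no comparison. It was 13.7 ± 2.12 CPM in eWAT ND (SD, n = 4), 12.0 ± 5.01 CPM in WT HFD and 18.0 ± 5.10 CPM in KO HFD (SD, n = 5 each), and 18.8 ± 2.24, 16.7 ± 5.10 and 19.9 ± 6.88 CPM in the iWAT groups (SD, n = 3, 5 and 3). WT HFD libraries 1 and 2 of eWAT, at 4.82 and 8.83 CPM, lay below all other eWAT libraries.

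Of 17 cofactors of nuclear receptors, 10 fell and 0 rose with HFD in eWAT (median -0.29), and 4 rose and 2 fell by genotype (median 0.28). *Nrip1*, which encodes the corepressor RIP140, fell by 0.81 with HFD (SE 0.15, adjusted p = 0.00135) and was 0.76 ± 0.14 higher in KO HFD (adjusted p = 0.011). *Lpin1*, a phosphatidate phosphatase and coactivator, fell by 1.16 (SE 0.24, adjusted p = 0.00263) and was 0.73 ± 0.23 higher (adjusted p = 0.0558, lost in 6 of 23 alternatives). *Tbl1x*, a corepressor subunit, fell by 0.68 (SE 0.09, adjusted p = 0.000315) and was 0.32 ± 0.09 higher (adjusted p = 0.0321). Both eWAT comparisons use the same WT HFD libraries. In iWAT 8 of the 17 fell with HFD and 1 rose (median -0.46), the last being *Prdm16*, a coregulator of beige fat, by 0.78 ± 0.15 (adjusted p = 0.00237).

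*Nr1h3* (chromosome 2, 91184061 to 91202834, minus strand) encodes LXR alpha, which senses oxysterols and is made by both adipocytes and macrophages. In iWAT it measured 89.4, 93.8 and 105 CPM in ND, 112, 119, 136, 125 and 107 CPM in WT HFD, and 111, 122 and 118 CPM in KO HFD. All 8 HFD libraries lay above all 3 ND libraries, and the WT and KO libraries overlapped. *Nr1h3* rose with HFD by 0.34 ± 0.11 (adjusted p = 0.0261), a 1.27-fold difference, and the genotype difference was -0.05 ± 0.11 (adjusted p = 0.848). Leaving out ND library 1 (0.28, adjusted p = 0.102) or ND library 2 (0.32, adjusted p = 0.101) ended this call, as did the header numbering as a term (0.30, adjusted p = 0.151). Macrophage markers also rose with HFD in iWAT (8 of 10, median 1.33), and their part in the *Nr1h3* difference was not tested. In eWAT the level was 105 ± 22.2 CPM in ND (SD, n = 4), 123 ± 22.8 CPM in WT HFD (SD, n = 5), and 123 to 171 CPM in the 5 KO HFD libraries, with no call by diet (adjusted p = 0.307) or genotype (adjusted p = 0.591).

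Among 13 LXR targets, 5 of the 11 tested rose and 1 fell with HFD in iWAT (median 0.34), and 4 rose and 1 fell in eWAT (median 0.06). *Pltp*, the phospholipid transfer protein, rose by 2.0 ± 0.23 in iWAT (adjusted p = 0.000151) and by 2.44 ± 0.40 in eWAT (adjusted p = 0.000789), and *Lpcat3*, which remodels phospholipids, by 0.91 ± 0.21 (adjusted p = 0.00584) and 0.60 ± 0.18 (adjusted p = 0.0181). *Fasn*, fatty acid synthase, fell in eWAT by 1.53 (SE 0.45, adjusted p = 0.0148). By genotype in eWAT *Pltp* and *Abcg1*, a cholesterol exporter, fell by 1.70 and 0.83 (adjusted p = 0.0139 and 0.0786, the latter lost in 8 of 23 alternatives) and *Scd1* rose, as given above. The macrophage markers fell in the same comparison.

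*Ppara* (chromosome 15, 85734983 to 85802819, plus strand) was near the limit of the filter. It measured 2.16, 1.56, 1.18 and 2.59 CPM in eWAT ND and 2.60, 3.91 and 7.22 CPM in iWAT ND, and on HFD the WT libraries held 1.44 to 2.03 CPM in eWAT and 2.15 to 5.31 CPM in iWAT. The iWAT libraries lay above the eWAT libraries in WT ND, where the nearest were at 2.598 and 2.587 CPM, and in WT HFD. In KO HFD the depots overlapped, at 1.11 to 3.62 CPM in eWAT and 0.823 to 7.62 CPM in iWAT. In WT ND, eWAT was lower than iWAT by a log2 difference of -1.28 ± 0.53 (adjusted p = 0.0833), the sole call among the 10 genes where 31.7% of all genes were called. The difference missed the threshold in 8 of 31 alternatives, among them without eWAT ND library 1, 2 or 3 (adjusted p = 0.114, 0.157 and 0.183) or iWAT ND library 2 (0.133). Without iWAT ND library 3, which held the highest level and the highest brown or beige markers, it was -0.80 (adjusted p = 0.374). On HFD the depot comparison called 0 of the 10 genes in WT mice (*Ppara* -0.89 ± 0.45, adjusted p = 0.205), beside 18.6% of all genes, and 0 in KO mice (*Ppara* -0.74 ± 0.51, adjusted p = 0.559), beside 3.81%. In WT mice on HFD 2 members had an unadjusted p under 0.05 and in KO mice 0, and DESeq2 called 0 in both. Neither diet nor genotype was called for *Ppara* in either depot.

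Of 18 PPARA targets, 7 of the 16 tested were lower and 1 was higher in eWAT than in iWAT on normal diet, with a median of -0.50 against 0.02 for all genes. *Acadl* (-1.19 ± 0.20, adjusted p = 0.000204), *Acadm* (-0.72 ± 0.17, adjusted p = 0.00365), *Hadha* (-0.87 ± 0.22, adjusted p = 0.00654) and *Slc25a20* (-0.92 ± 0.20, adjusted p = 0.00191) act in mitochondrial fatty acid oxidation. All 6 brown or beige markers were lower in eWAT in the same comparison (median -5.32). Skeletal muscle markers were lower too (5 of 5, median -9.95), but their summed level was uneven among the iWAT ND libraries. It was 7095 CPM in iWAT ND library 1, 5.48 CPM in library 2 and 274 CPM in library 3. Library 2 lay below every eWAT ND library, so the muscle difference was not shared by all iWAT ND libraries. The summed brown or beige markers were uneven too, at 189, 479 and 1354 CPM in iWAT ND libraries 1, 2 and 3. The part of either cell type in the PPARA target differences was not tested. With HFD 2 of the 14 PPARA targets tested rose in eWAT. *Cpt1a*, which admits fatty acids to mitochondria, rose by 0.96 ± 0.19 (adjusted p = 0.00212) and *Acadl* by 0.50 ± 0.18 (adjusted p = 0.0444). By genotype in eWAT 1 rose, *Pex11a*, a peroxisome proliferation factor (0.49 ± 0.16, adjusted p = 0.0586), which lost the call in 7 of 23 alternatives.

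*Ebf1* (chromosome 11, 44617317 to 45008091, plus strand) measured 189, 163, 223 and 198 CPM in eWAT ND, 146, 122, 185, 145 and 192 CPM in WT HFD, and 199, 292, 279, 264 and 97.6 CPM in KO HFD. All but 1 of the 5 KO HFD libraries were above all WT HFD libraries and library 5 was below them all. The genotype difference was 0.52 ± 0.24 (adjusted p = 0.168), and without KO HFD library 5 it was 0.71 with an adjusted p of 0.00651. That library also had the highest summed macrophage markers of its group, 1360 CPM, and was the sole library of its group in the higher header series. In iWAT *Ebf1* measured 186, 175 and 163 CPM in ND, 204, 201, 156, 177 and 244 CPM in WT HFD, and 360, 230 and 153 CPM in KO HFD, with no call by diet (0.20 ± 0.23, adjusted p = 0.505) or genotype (0.30 ± 0.22, adjusted p = 0.527). In the iWAT ND libraries, which held the B cell markers given above, the *Ebf1* levels lay within the range of the WT HFD libraries, and the part of B cells in these levels was not tested.

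*Klf15* (chromosome 6, 90462576 to 90475238, plus strand) measured 51.6, 62.4, 110 and 118 CPM in eWAT ND, 24.8, 24.5, 26.9, 16.6 and 29.4 CPM in WT HFD, and 47.1, 85.7, 69.3, 47.7 and 41.1 CPM in KO HFD. All 5 WT HFD libraries lay below all ND and all KO HFD libraries. The KO HFD range overlapped the ND range, with 3 of the 5 KO HFD libraries below all ND libraries. KO HFD was not tested against ND. *Klf15* fell by 1.81 on the log2 scale with HFD (SE 0.28, adjusted p = 0.000546) and was 1.25 ± 0.26 higher in KO HFD than in WT HFD (adjusted p = 0.0136). The genotype call held in all 23 alternatives run, with an adjusted p of 0.0386 or less, and the diet call in 22 of 23, the exception being the higher header series alone, where 1 WT HFD library was left (-1.52, adjusted p = 0.157).

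In iWAT *Klf15* measured 64.3, 66.2 and 109 CPM in ND, 45.1, 29.5, 26.8, 25.2 and 37.9 CPM in WT HFD, and 72.3, 60.9 and 76.4 CPM in KO HFD. Here too the WT HFD libraries lay below all others. It fell by 1.25 with HFD (SE 0.23, adjusted p = 0.00154). The genotype difference was 1.06 ± 0.23, with an unadjusted p of 0.000616 and an adjusted p of 0.136, close to the smallest of any gene in this comparison (0.108). It passed in 6 of 20 alternatives, with an adjusted p of 0.00108 in DESeq2, 0.096 without a filter, 0.0873 with 1 CPM asked of every library, 0.0929 without WT HFD library 5 and 0.0407 without KO HFD library 3. The genotype effects of the 2 depots differed by 0.16 ± 0.37 (adjusted p = 0.92) and the diet effects by -0.53 ± 0.38 (adjusted p = 0.355). The comparison of genotype effects between depots called 0 of the 10 genes in edgeR and in DESeq2, with 0 at an unadjusted p under 0.05, beside 0.00665% of all genes.

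The 8 genes linked to KLF15, which are enzymes of amino acid use together with *Slc2a4* and *Acss1*, were read in the same libraries. In eWAT 4 fell and 1 rose with HFD (median -0.35), and 4 rose and 0 fell by genotype (median 0.66). *Gpt2*, the mitochondrial alanine transaminase, was 454 ± 146 CPM in ND (SD, n = 4), 133 ± 22.1 CPM in WT HFD and 288 ± 85.5 CPM in KO HFD (SD, n = 5 each), and it fell by 1.78 with HFD (adjusted p = 0.000367) and was 1.12 ± 0.24 higher by genotype (adjusted p = 0.0136). *Prodh*, proline dehydrogenase, was 53.0 ± 11.1, 14.1 ± 3.90 and 33.9 ± 12.0 CPM in the same groups, falling by 1.91 (adjusted p = 0.000389) and standing 1.27 ± 0.26 higher by genotype (adjusted p = 0.0127). *Bcat2*, which transaminates branched-chain amino acids, fell by 0.77 (adjusted p = 0.034) and was 0.79 ± 0.26 higher (adjusted p = 0.0584, lost in 6 of 23 alternatives), and *Slc2a4* fell by 0.94 (adjusted p = 0.0344). In iWAT all 8 were called with HFD, 5 lower and 3 higher: *Prodh* fell by 1.48 and *Acss1*, a mitochondrial acetyl-CoA synthetase, by 1.85, while *Tat*, tyrosine aminotransferase, rose by 8.50 from near 0 and *Gpt*, the cytosolic transaminase, by 0.94. By genotype in iWAT 0 of the 8 were called, with *Gpt2* at 0.54 ± 0.15 (adjusted p = 0.154) and *Gpt* at -0.13 ± 0.20 (adjusted p = 0.791).

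Glucocorticoid-responsive genes and clock genes were read because *Klf15* is known to answer to both. Of 12 glucocorticoid-responsive genes 6 fell and 0 rose with HFD in eWAT (median -0.67). *Zbtb16*, a zinc finger repressor, fell by 3.12 (SE 0.29, adjusted p = 9.34e-05), *Fkbp5*, a chaperone of the glucocorticoid receptor, by 1.72 (SE 0.39, adjusted p = 0.00375), and *Sgk1*, a serum- and glucocorticoid-regulated kinase, by 1.28 (SE 0.30, adjusted p = 0.00517). By genotype 1 of the 12 rose, *Zbtb16* by 0.78 ± 0.27 (adjusted p = 0.0691), a call lost in 11 of 23 alternatives (adjusted p up to 0.167), 7 of which left out 1 library, and the list median was -0.32. In iWAT 2 fell and 1 rose with HFD (median -0.19). Of 14 clock genes 3 fell with HFD in eWAT (median -0.39), including *Nr1d1*, which encodes REV-ERB alpha (-1.45 ± 0.34, adjusted p = 0.00476), and *Per1* (-1.34 ± 0.38, adjusted p = 0.013), and 1 fell by genotype. In iWAT 1 of the 14 fell with HFD. The hour of tissue collection is not given in the sources used here.

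Further lists set the 10 genes among other regulators of fat cell formation. Of 22 other activators 9 of the 21 tested fell and 2 rose with HFD in eWAT, with *Ebf2*, a relative of *Ebf1*, at -1.01 ± 0.19 (adjusted p = 0.0015) and *Mlxipl*, the glucose sensor ChREBP, at -0.89 ± 0.24 (adjusted p = 0.011). By genotype 3 rose and 0 fell: *Mlxipl* by 0.75 ± 0.23 (adjusted p = 0.053), *Ebf2* by 0.51 ± 0.18 (adjusted p = 0.0799) and *Nr3c1*, the glucocorticoid receptor, by 0.34 ± 0.12 (adjusted p = 0.0815), where 14.3% of the list was called beside 19.9% of all genes. These calls depended on single libraries and settings: of 23 alternatives, most of them leaving out 1 library, *Nr3c1* lost the call in 15 (adjusted p up to 0.214), *Ebf2* in 12 (up to 0.179) and *Mlxipl* in 5 (up to 0.132). In iWAT 6 fell and 5 rose with HFD, with *Ebf2* at -0.86 ± 0.16 (adjusted p = 0.00183) and *Zfp423*, a preadipocyte factor, at 0.93 ± 0.17 (adjusted p = 0.00157). Of 18 inhibitors 9 of the 16 tested fell and 2 rose in eWAT with HFD (median -0.67), 1 rose and 1 fell by genotype, and 4 fell and 2 rose in iWAT with HFD. *Irf4*, a fasting-induced repressor of lipogenesis, fell by 2.74 in eWAT (adjusted p = 0.00314) and by 2.66 in iWAT (adjusted p = 7.44e-05), and *Gata2*, a zinc finger factor of preadipocytes, fell by 1.35 in eWAT (adjusted p = 0.00102). B cell markers fell with HFD in iWAT as well (6 of 6, median -5.38), and their part in the iWAT value of *Irf4* was not tested. Of 13 immediate early genes, which respond quickly to stimulation and tissue handling, 6 rose and 3 fell with HFD in eWAT (median 0.57) and 4 fell and 0 rose by genotype (median -0.36), among them *Atf3* (3.93 ± 0.72 and -2.98 ± 0.63) and *Egr1* (1.1 ± 0.20 and -0.89 ± 0.19).

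**Figure D4:**
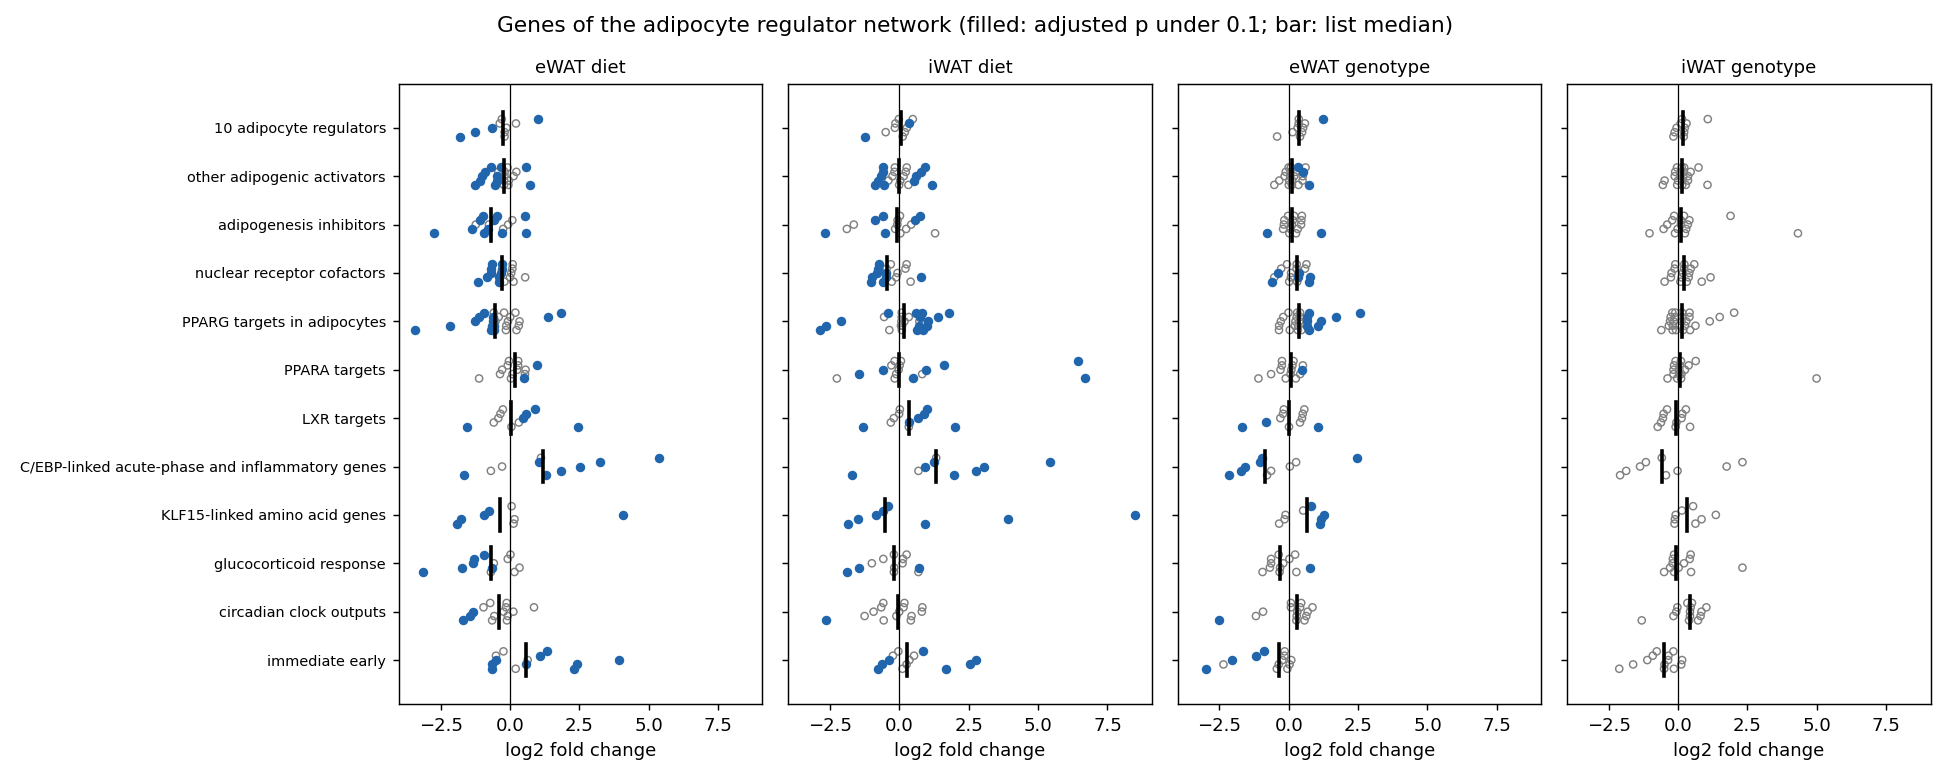
Log2 fold change (horizontal axis) of each tested gene (points) in the 10 regulators and 11 lists of related genes (vertical axis) for the 4 comparisons within a depot, filled where the adjusted p was under 0.1, with a bar at each list median. In eWAT the KLF15-linked list has a median of -0.35 with HFD and 0.66 by genotype, and in iWAT by genotype no point is filled.

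How the 10 genes vary together from library to library was described with log2 CPM after subtracting each group's mean, over the 25 libraries. Within a group the libraries differed in depth and in the summed markers of cell types, so these correlations are descriptions without a test. Of the 45 pairs, 13 had a Pearson r above 0.5 and 9 were below 0, with a median of 0.307. *Pparg* and *Cebpa* had the highest value (r = 0.815), followed by *Cebpa* with *Rxra* (0.765), *Pparg* with *Klf15* (0.759) and *Pparg* with *Rxra* (0.71). *Cebpd* ranged from -0.65 with *Rxrg* over -0.177 with *Cebpa* and 0.112 with *Pparg* to 0.394 with *Klf15*, and *Ebf1* and *Ppara* had r = -0.461. The genes whose pattern was most like each member included *Tmem120b* (r = 0.905) for *Pparg*, *Tmem143* (0.89) and *Slc2a4* (0.887) for *Cebpa*, *Foxo1* (0.844) and *Eif4e3* (0.823) for *Klf15*, and *Zfhx3* (0.941) and *Nfia* (0.924) for *Ebf1*. For *Cebpd* they were *Arrdc3* (0.863) and *Arid5b* (0.857), for *Cebpb* *Ppp6c* (0.886) and *Rab9* (0.858), and for *Rxra* *Epb41l1* (0.876) and *Gnpat* (0.863). *Rxrg* was most like *Ffar2* (0.915) and *Als2cr12* (0.898), *Nr1h3* like *Abhd16a* (0.915) and *Tmem120a* (0.887), and *Ppara* like *Fer* (0.805) and *Gm13910* (0.803).

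**Figure D5:**
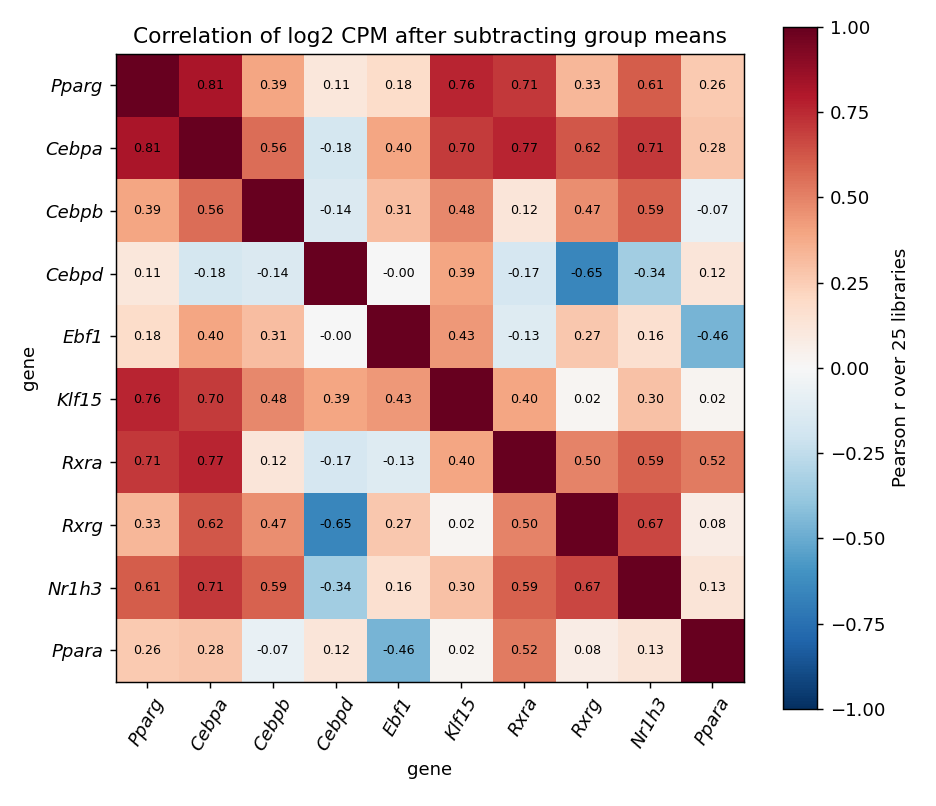
Pearson r between the 10 genes (both axes) over 25 libraries, computed on log2 CPM after subtracting each group's mean, with red for positive and blue for negative values. *Pparg*, *Cebpa*, *Rxra* and *Klf15* share high values except *Rxra* with *Klf15*, with a maximum of r = 0.815, and *Cebpd* has the lowest value, r = -0.65 with *Rxrg*.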

How the data were processed

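Poly(A) libraries from eWAT and iWAT were sequenced by the authors, who trimmed reads with cutadapt and aligned them with STAR to GRCm38. The deposited counts are whole numbers of reads per gene, and the counting program and its strand setting are not given in the sources used here. The deposited FPKM values followed from the counts and the cDNA lengths to within 0.0005 and were not used further. Gene IDs were joined to GENCODE vM21 symbols (54723 of 54752), and *Ddit3*, whose symbol had more than 1 ID, was dropped from its list. Rows for reads on no feature (6.41% to 11.9%) or ambiguous reads (1.52% to 2.07%) were left out of library sizes.

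Counts were tested with edgeR 4.0.16 in R 4.3.3 (quasi-likelihood test, TMM scaling, two-sided, genes kept at 1 CPM or more on average over the libraries fitted, Benjamini-Hochberg over all genes tested, called at an adjusted p under 0.1). Each depot was fitted with its 3 groups, and differences between depots with all 6 groups. Standard errors are those of the log2 fold change. Levels are CPM scaled by TMM over the 25 libraries. Correlations used log2 CPM with a prior count of 2. The steps were tested on simulated data. No pair of libraries within a group was a copy (lowest chi-square per degree of freedom 33.7), and pairs across groups were not compared in this way. The labels do not say that libraries came from separate litters or cages, so p-values measure the spread between these libraries. List genes are named if among the 4 smallest adjusted p called with a mean of at least 5 CPM, or the 2 most abundant where none was called; for likeness, the 2 genes with the highest r, of which 1 is not reported here. *Spidr* and *Tmem189* are named for their overlap with members. The 10 genes and the lists were chosen with earlier results of these data known. Fits of the lower or the higher header series alone were added after the headers were seen. Alternatives were no filter, 1 CPM in every library, DESeq2 1.42.0 and its size factors in edgeR. Further ones were a replicate block, the header series as a term, each library left out and an adjusted p under 0.05. Comparisons within a depot were also fitted with the groups compared alone.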

Additional observations from a re-analysis of the deposited data

Results flagged for a closer look

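*Rxrg* in eWAT WT ND library 4 measured 16.8 CPM, far above the next library of its group at 12.9 CPM, with a gap of 0.867 of the group's range. *Nr1h3* in eWAT KO HFD library 2 measured 171 CPM against 128 CPM in the next library, with a gap of 0.888 of the range. That library also had the highest share of mitochondrially encoded counts of the series, 13.2%, and its part in the value was not tested. These were 2 of 40 groups of 4 or 5 libraries examined, and chance gives about 1 in 20.

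The diet effect on *Rxra* differed between the depots by -0.60 on the log2 scale (edgeR, adjusted p = 0.0855), with a fall of 0.65 in eWAT and a difference of -0.02 in iWAT.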

How the results depend on the processing

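Of 1173 recomputed values of the 10 genes, 1096 kept their direction and their side of the threshold, 30 lost the call, 20 gained it and 27 changed sign. Of 3849 recomputed values of named list genes 3588 kept both, and of 1892 list counts 1575 stayed within 1.5 times. Where no cause is given, it was not tested. The higher header series alone leaves 1 library per HFD group.

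Members called by diet fell from 4 to 0 in eWAT and from 2 to 0 in iWAT in the higher header series alone (13.9% and 19% of all genes called), and were 1 in iWAT with the header term (38.8%). In the lower series alone 2 were called by genotype in each depot, beside 25.9% of all genes in eWAT and 14.9% in iWAT. In iWAT by genotype 1 was called without a filter, with 1 CPM in every library and in DESeq2, beside 0.244%, 0.745% and 7.24% of all genes. For diet by depot 0 were called without a filter (10.3% of all genes called) and at an adjusted p under 0.05. For depot in WT ND 0 were called under those settings and with 1 CPM in every library, where *Ppara* was not tested, and 2 in DESeq2. Beside these, 12.8% of all genes were called without a filter, 30.1% with 1 CPM in every library and 33.7% in DESeq2. Leaving out 1 library gave 1 to 2 members in eWAT by genotype, 1 to 4 in iWAT by diet, and 0 to 2 in iWAT by genotype, for diet by depot and for depot in WT ND. Over all genes tested, the calls ran from 1709 of 14933 to 4238 of 14952 in eWAT by genotype. In iWAT they ran from 5465 of 14709 to 8111 of 14851 by diet and from 0 to 2664 of 14851 by genotype. For diet by depot they ran from 2963 of 14988 to 4671 of 15071. For depot in WT ND they ran from 2931 of 14988 to 5061 of 15071. The share of all genes called by genotype was 28.3% in eWAT without KO HFD library 5 and 17.9% in iWAT without KO HFD library 3.

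Whether replicate numbers pair the libraries is not settled. Deviations of same-numbered libraries correlated between -0.171 and 0.489, and in no pair of groups were all above 0.1. Between eWAT WT HFD and KO HFD 4 of 5 pairs were (0.17 to 0.261), each library matching its own number best in the other group, and number 2 was not (-0.0973). With the replicate block 6906 genes were called by diet and 2389 by genotype in eWAT and 5672 by diet in iWAT, against 7730, 2976 and 7415. The block gave 2 members for diet by depot (29.5% of all genes called) and 1 for depot in WT HFD (19.6%). It turned *Cebpd* in iWAT by diet to 0.142 and *Ppara* in iWAT by genotype to -0.242, and *Ppara* in WT ND lost its call (adjusted p = 0.102).

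In the higher series alone the sign changed by diet for *Cebpa* (0.109), *Ebf1* (0.00394) and *Rxrg* (0.329) in eWAT and for *Rxra* (0.0796) and *Rxrg* (0.041) in iWAT. With the header term it changed in iWAT for *Rxra* (0.305) and *Ppara* (0.561) by diet and *Ppara* (-0.331) by genotype, which was -0.842 in the lower series alone.

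Leaving out 1 library changed signs over these ranges: *Rxrg* -0.348 to 0.00137 and *Ppara* -0.29 to 0.0673 in eWAT by diet, *Cebpd* -0.552 to 0.0506, *Rxra* -0.0761 to 0.0428, *Acta1* -4.16 to 0.624 and *Mylpf* -4.37 to 0.21 in iWAT by diet. In iWAT by genotype they were *Cebpb* -0.224 to 0.513, *Cebpd* -0.415 to 0.225, *Ebf1* -0.0238 to 0.585, *Rxra* -0.358 to 0.107, *Rxrg* -0.0756 to 0.417, *Nr1h3* -0.0879 to 0.0217, *Ppara* -0.88 to 0.691 and *Gpt* -0.323 to 0.0727. *Klf15* ranged from -0.0149 to 0.243 for genotype by depot and *Ppara* from -1.22 to 0.352 for depot in KO HFD.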
